A study of Mus musculus with 36 samples.

Results

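Primary mouse cortical cultures that received dexamethasone (DEX) together with its receptor antagonist RU-486 were compared with untreated control cultures of the same batch. The libraries were chosen by label: batch 1, an RNA integrity number (RIN) of 6 or above, and the treatment Ru or Control. This gave 5 DEX + RU-486 libraries (13 to 17) and 6 control libraries (1 to 6), 11 of the 36 RNAseq libraries of the series. All genes with a mean count above 5 over these 11 libraries are described, 19679 of 55492 table entries. Every culture was made of dissociated cortical cells of embryonic day 18 mice (C57EDCX). After 10 days in culture the DEX + RU-486 cultures were given 1 µM DEX and 1 µM RU-486 for 72 h, and the control cultures fresh medium alone. Libraries of 5 DEX cultures of batch 1 (7 to 11) and of 4 control (21 to 24) and 4 DEX + RU-486 cultures (33 to 36) of batch 2 served for comparison. No library labelled RU-486 alone was analysed here. The labels do not say what the batch number marks, nor whether the libraries of a group came from separate embryos or culture wells, so p-values measure the spread between libraries, which may be partly technical.

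DEX is a synthetic glucocorticoid that binds the glucocorticoid receptor (GR, encoded by Nr3c1). The bound receptor leaves its chaperones, enters the nucleus and binds DNA, where it raises genes such as Fkbp5, Tsc22d3, Sgk1 and Per1. RU-486 (mifepristone) occupies the same pocket and blocks this response, and it also binds the progesterone receptor. The B27 supplement of the medium is known to contain corticosterone, so control cultures are not free of hormone. The comparison asks which genes differed from control when the antagonist was present with the agonist.

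The promoter sequences of 5 genes are shown here because the members of their groups are described together in the following paragraphs. They are the 250 bases upstream of a RefSeq transcript start in GRCm38.p6, 5′ to 3′ on the strand of the gene. The motif, searched on both strands, is in capitals, and each window is the first of its gene that held it. The first pair carries CCAAT, the box bound by NF-Y, which works beside SREBP-2 at sterol-regulated promoters. The first of these belongs to the gene of SREBP-2 itself (chr15:82147019-82147268, plus strand), and the other to the gene of a desaturase late in the cholesterol pathway (chr9:42264301-42264550, minus strand).
Srebf2: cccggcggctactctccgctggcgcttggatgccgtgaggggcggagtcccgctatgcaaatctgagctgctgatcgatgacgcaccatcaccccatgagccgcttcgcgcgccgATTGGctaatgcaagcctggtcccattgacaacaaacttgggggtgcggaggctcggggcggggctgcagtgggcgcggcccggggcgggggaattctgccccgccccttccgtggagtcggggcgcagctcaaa
Sc5d: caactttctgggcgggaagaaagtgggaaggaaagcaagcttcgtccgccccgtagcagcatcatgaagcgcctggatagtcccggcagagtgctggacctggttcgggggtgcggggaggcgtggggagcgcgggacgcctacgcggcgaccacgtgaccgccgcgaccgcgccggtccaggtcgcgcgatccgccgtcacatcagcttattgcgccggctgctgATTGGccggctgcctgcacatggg
CCAAT was found in the window of 16 of the 17 genes of the cholesterol list that had a promoter in the table, and in 33.8% of all 32851 promoters. A listed gene was counted if any of its promoters held the motif, whereas the share of all promoters counts each promoter. The gene counts and promoter shares of each motif are thus in unlike units. The next pair, of immediate early genes, carries TGACGTCA, the cyclic AMP response element, which was found in 1.55% of all promoters and in 2 of the 16 immediate early genes with a promoter. Btg2 lies at chr1:134079156-134079405 and Dusp1 at chr17:26508473-26508722, both windows on the minus strand.
Btg2: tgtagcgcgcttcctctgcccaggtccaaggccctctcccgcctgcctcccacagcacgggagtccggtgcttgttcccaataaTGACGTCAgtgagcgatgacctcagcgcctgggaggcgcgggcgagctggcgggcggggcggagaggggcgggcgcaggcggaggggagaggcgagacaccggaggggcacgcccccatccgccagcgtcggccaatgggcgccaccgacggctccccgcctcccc
Dusp1: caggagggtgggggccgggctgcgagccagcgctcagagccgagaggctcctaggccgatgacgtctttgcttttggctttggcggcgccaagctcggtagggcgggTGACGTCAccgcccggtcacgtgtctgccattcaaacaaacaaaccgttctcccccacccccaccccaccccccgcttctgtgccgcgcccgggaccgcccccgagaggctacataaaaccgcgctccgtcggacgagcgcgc
The last window, of the kinase gene Sgk1 (chr10:21993640-21993889, plus strand), holds the palindrome that GR binds, AGAACA and TGTTCT with 3 bases between them. Only 3 of all 32851 promoters held it in this window, and 1 of the 30 listed GR targets with a promoter, Sgk1. The window lies inside the annotated gene (chr10:21882184-21999903).
Sgk1: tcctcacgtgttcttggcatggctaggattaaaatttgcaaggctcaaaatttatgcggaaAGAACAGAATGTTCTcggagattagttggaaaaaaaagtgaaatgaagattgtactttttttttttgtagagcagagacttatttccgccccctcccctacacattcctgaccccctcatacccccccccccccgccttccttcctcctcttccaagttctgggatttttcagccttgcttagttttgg

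The libraries of both groups differed in RNA quality before any gene was compared. Control libraries had a RIN of 7.8 to 9.2 and DEX + RU-486 libraries one of 6.6 to 7.9, so that the groups overlapped by control library 1 and DEX + RU-486 library 14 alone. The mitochondrial ribosomal RNAs took 9.54% to 19.1% of the counts of control libraries and 24.8% to 41.9% of those of DEX + RU-486 libraries, without overlap. Protein-coding genes took 73.8% to 83.7% and 47.2% to 66.6%. Total counts were 24.2 M to 82.4 M in control and 17.4 M to 26.7 M in DEX + RU-486. On the first principal component, with 25.7% of the variance, control libraries lay between -55.8 and -7.9, library 14 at -3.4 and the other DEX + RU-486 libraries between 9.6 and 87.9. Library 13, of the lowest RIN, stood apart on the second component at 90, where the others lay between -30.1 and 32.5. All 14 neuronal markers passed the count filter, with a summed level of 3537 to 4441 CPM (counts normalised to library size) in control and 3015 to 3892 CPM in DEX + RU-486. Of 9 microglia markers 3 passed it.

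**Figure D1:**
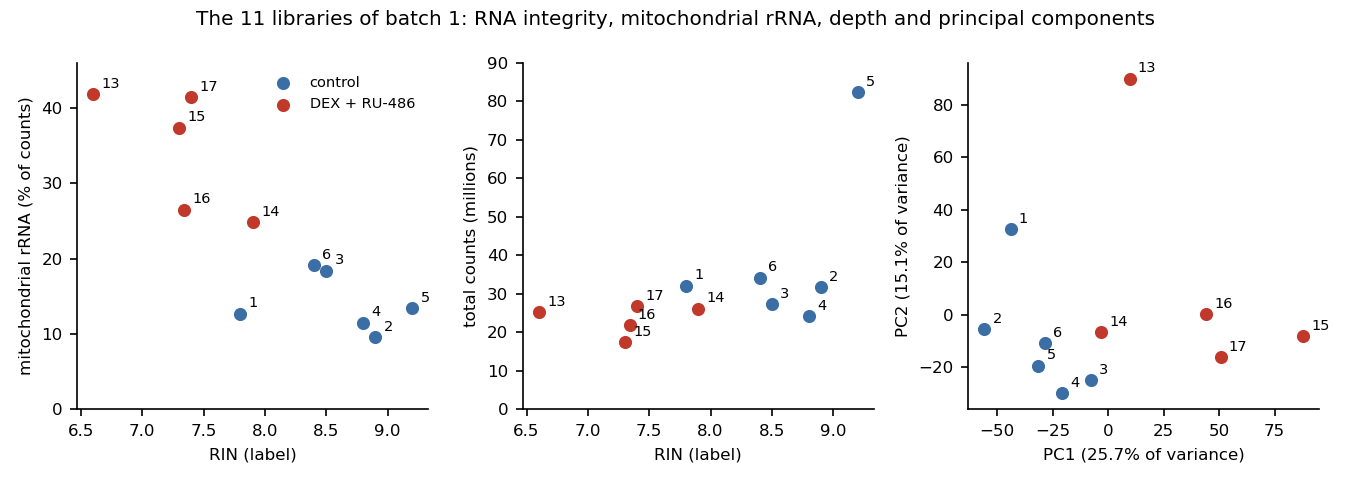
The 11 libraries of batch 1, control in blue and DEX + RU-486 in red, numbered by library. The left and middle panels plot the mitochondrial rRNA share in percent and the total counts in M against the labelled RIN, and the right panel the principal components of log2 CPM. All 5 DEX + RU-486 libraries lay above the control libraries in mitochondrial rRNA, and their RIN did not exceed 7.9.

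Without regard to RIN, DEX + RU-486 differed from control in 2829 genes. Of the 19679 genes tested, 1283 were higher (6.52%) and 1546 lower (7.86%), 14.4% together, at an adjusted p under 0.05. The rises were larger than the falls: 574 of the higher genes passed 2-fold, and 28 of the lower genes. Every DEX + RU-486 library lay above every control library in 492 genes (2.5% of those tested) and below every control library in 1136 genes (5.77%). With upper-quartile scaling 1539 genes were higher and 1157 lower, so that 57.1% of the calls were higher, against 45.4% with TMM scaling. Once RIN was a covariate, 0 genes were called by edgeR in either direction, while 1170 had a rise and 1817 a fall with p under 0.05 before adjustment, and the smallest adjusted p was 0.0657. Among the libraries of RIN 7 to 8.6 alone (control 1, 3 and 6, DEX + RU-486 14 to 17), 12 genes were higher and 17 lower. Treatment and RIN thus cannot be told apart by these 11 libraries for most genes, and medians of gene lists with RIN as a covariate are given with their counts. Without control 2 the calls were 622 higher and 870 lower, without control 5 they were 675 and 999, without DEX + RU-486 15 they were 687 and 938, and without DEX + RU-486 17 they were 644 and 856.

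The direction of the calls depended on the level of the gene. Among protein-coding genes over 100 CPM, 33.2% were lower and 3.07% higher. From 10 to 100 CPM, 13.3% were lower and 6.02% higher, whereas from 1 to 10 CPM 1.81% were lower and 9.16% higher. Under 1 CPM, 4 of 2141 protein-coding genes were lower and 106 higher. The median log2 fold change over all genes was 0.06, over protein-coding genes -0.015, over antisense transcripts 0.39, over lincRNAs 0.29 and over processed pseudogenes 0.32. By exon length, 14.2% of protein-coding genes of 6962 bases or more were lower, and 5.92% of those of 2866 bases or less. The part that RNA integrity had in these differences by level, type and length was not tested.

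**Figure D2:**
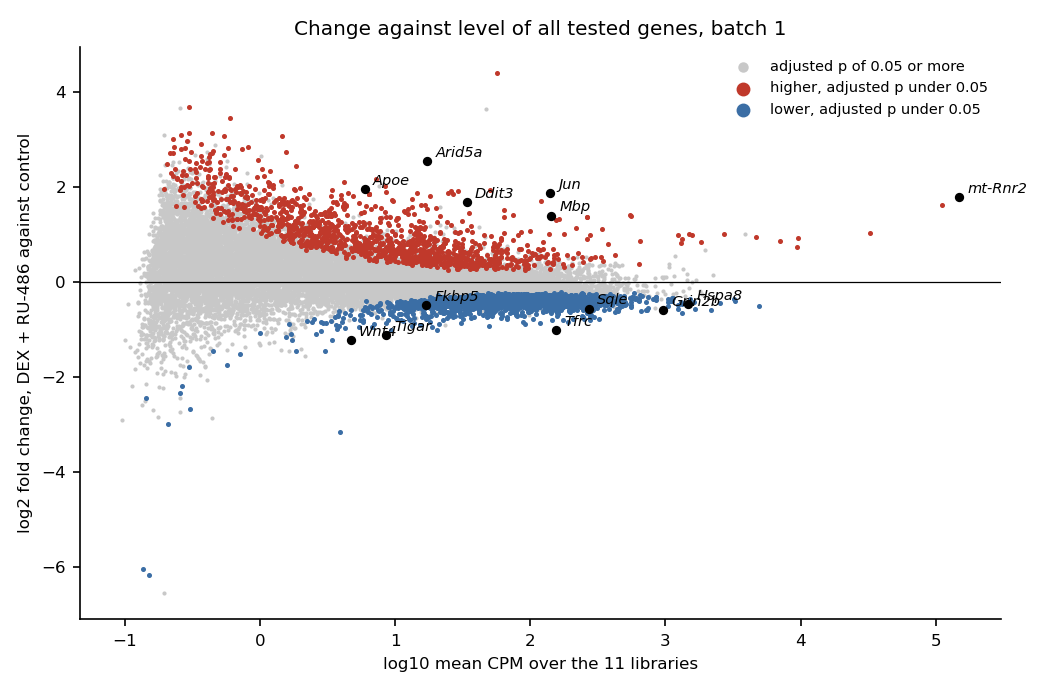
Log2 fold change of DEX + RU-486 against control in batch 1 (vertical axis) against the log10 mean CPM over the 11 libraries (horizontal axis), 1 point per tested gene. Genes at an adjusted p under 0.05 are red where higher and blue where lower. Lower genes crowd at high level and small fold, and higher genes reach larger folds at low level.

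The 6 genes of smallest p in each direction were chosen among called protein-coding genes whose groups did not overlap. Tfrc (ENSMUSG00000022797, chr16:32608920-32632794), the transferrin receptor that takes up iron, stood at 215, 210, 176, 202, 219 and 189 CPM in control libraries 1 to 6 and at 94.9, 122, 88.7, 96.1 and 82.7 CPM in DEX + RU-486 libraries 13 to 17. All DEX + RU-486 libraries thus lay well under the lowest control. The log2 fold change of Tfrc was -1.02 ± 0.10 (SE, adjusted p = 0.000466), the smallest p of the comparison. Fzd3, a Wnt receptor that guides axons, fell from 239 ± 38.8 to 129 ± 6.98 CPM (SD, n = 6 and 5). Mgat3, a glycosyltransferase, fell from 95.8 ± 6.66 to 57.8 ± 5.03 CPM, and Manf, a protein of the endoplasmic reticulum stress response that protects neurons, from 43.7 ± 3.22 to 26.4 ± 2.27 CPM. Megf9 and the ATPase gene Ola1 fell by 0.68 and 0.72 on the log2 scale. Of the higher genes, Sh2d3c, an adaptor of receptor signalling, rose from 15 ± 1.96 to 35.2 ± 8.21 CPM, with library 13 highest at 49.4 CPM. Ypel4 rose from 8.48 ± 1.66 to 18.8 ± 2.90 CPM, and Recql4, a DNA helicase, from 2.31 ± 0.56 to 6.78 ± 1.15 CPM. Bsdc1 rose by 0.66 ± 0.09 and Eif2ak3, the endoplasmic reticulum kinase PERK, by 0.99 ± 0.14 on the log2 scale. In the fit with RIN as a covariate, these 10 genes and Tfrc kept their signs, with Tfrc at -0.88 ± 0.16 (adjusted p = 0.0735), Recql4 at 1.15 ± 0.37 and Sh2d3c at 0.70 ± 0.18.

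The largest falls among protein-coding genes whose groups did not overlap were smaller than the largest rises. Wnt4, a secreted Wnt ligand, stood at 5.29 to 7.84 CPM in control and at 1.84 to 4.04 CPM in DEX + RU-486, with a log2 fold change of -1.23 ± 0.22. Tigar, a p53-induced enzyme that lowers glycolytic flux, stood at 9.58 to 14.9 CPM and at 3.86 to 6.53 CPM (-1.12 ± 0.17). When RIN entered the model, Tigar was at -1.39 ± 0.27 (adjusted p = 0.0845). Mmp15, a membrane metalloprotease, fell from 26.8 ± 4.66 to 13 ± 3.71 CPM, and Usp1, a deubiquitinase of DNA repair, from 63.1 ± 6.99 to 32.2 ± 8.04 CPM. Mmp15 had the smallest adjusted p with RIN as a covariate, 0.0657, at -1.49 ± 0.24. Lig4, the ligase of non-homologous end joining, fell from 8.96 ± 1.98 to 4.69 ± 1.24 CPM. Pcsk6, a proprotein convertase, and Cyb561, a cytochrome of secretory vesicles, fell by 0.96 and 0.91 on the log2 scale. Gmpr, a purine enzyme, fell from 4.72 ± 0.74 to 2.44 ± 0.09 CPM. The last 3 of the 12, Ccdc87, Sec14l3 and the chloride channel gene Ano2, had control means of 2.09, 4.82 and 2.12 CPM and log2 fold changes of -1.17, -1.0 and -0.90. The call of Ano2 was lost in 9 of 11 fits that left out 1 library, and with RIN as a covariate it was at -0.36 ± 0.51 and Sec14l3 at -0.56 ± 0.30.

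The 12 largest rises under the same rule held genes of several cell types. Arid5a, which codes for an RNA-binding protein that stabilizes inflammatory transcripts, stood at 15.9, 2.07, 5.25, 4.48, 2.59 and 3.08 CPM in control libraries 1 to 6 and at 55.2, 16.5, 24, 28.5 and 32.6 CPM in DEX + RU-486 libraries 13 to 17. Control library 1, of the lowest control RIN, nearly reached library 14, the DEX + RU-486 library of the highest RIN. The log2 fold change of Arid5a was 2.53 ± 0.45 and, with RIN as a covariate, 0.57 ± 0.35. Apoe, a lipid carrier made mainly by astrocytes, rose from 2.66 ± 1.14 to 9.86 ± 5.92 CPM. Ermn, a protein of myelinating oligodendrocytes, rose from 0.739 to 2.43 CPM. Msn, a cytoskeletal linker of glia and endothelium, rose from 2.08 to 7.33 CPM, and Mmp14, a membrane metalloprotease, from 0.539 to 2.10 CPM. Dusp16, a phosphatase of the JNK kinases, rose from 2.80 ± 0.85 to 8.49 ± 2.96 CPM. Slc35g3 rose from 0.467 to 1.94 CPM. Jun, Btg2 and Ddit3, also among the 12, belong to the lists that follow.

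Immediate early genes were higher as a group. These genes, first transcribed within minutes of neuronal activity or stress, passed the test in the higher direction in 11 of 20 and in the lower direction in 0. Of all genes 6.52% were higher and 7.86% lower. The median log2 fold change of the list was 1.32, against 0.06 over all genes. Jun (ENSMUSG00000052684, chr4:95049034-95052222), a subunit of the factor AP-1, stood at 68.2, 36.1, 73.8, 88.6, 43.9 and 78.1 CPM in control libraries 1 to 6. It stood at 276, 112, 282, 236 and 242 CPM in DEX + RU-486 libraries 13 to 17. Library 14 was the lowest of its group and still above the highest control, and the log2 fold change was 1.86 ± 0.24 (adjusted p = 0.00181). Btg2, an antiproliferative gene whose promoter is printed above, stood at 2.80 to 8.92 CPM in control and 9.31 to 19.5 CPM in DEX + RU-486 (1.70 ± 0.27). Dusp1, the MAP kinase phosphatase whose promoter is printed above, rose from 10.1 ± 2.10 to 21.8 ± 5.16 CPM. Ier2 rose from 6.73 ± 2.97 to 18.0 ± 3.83 CPM, although control library 1 and library 14 met at 11.2 CPM. With RIN as a covariate the median of the list was -0.595, 6 of 20 genes were above 0, and Jun was at 0.97 ± 0.40 (adjusted p = 0.271). Among the libraries of RIN 7 to 8.6 the median was 0.63 and 15 of 20 were above 0. The count called was 18 without control 1 and 7 without control 2, without control 5 or without DEX + RU-486 15.

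Of 27 genes of the integrated stress and unfolded protein response, 7 were higher, none was lower and 20 did not pass the test, with a median log2 fold change of 0.76. Over all genes 6.52% were higher. These genes answer amino acid shortage, misfolded protein and mitochondrial stress through the factor ATF4. Ddit3 (CHOP, chr10:127290774-127296288), a factor that promotes cell death under stress, stood at 35.6, 9.01, 13.1, 19.7, 9.29 and 16.1 CPM in control libraries 1 to 6. In DEX + RU-486 libraries 13 to 17 it stood at 75.7, 39.4, 48.9, 49.2 and 54.9 CPM, all above the highest control, library 1. Its log2 fold change was 1.68 ± 0.30 (adjusted p = 0.00426). Trib3, a target of CHOP, rose from 3.75 ± 2.77 to 11.1 ± 2.84 CPM, and Ppp1r15a, which ends the translational block, from 37.8 ± 17.2 to 95.2 ± 24.5 CPM. Shmt2, a mitochondrial serine enzyme, rose from 25.2 ± 13.2 to 50.6 ± 17.1 CPM, with control library 1 at 51.6 CPM among the DEX + RU-486 libraries. Once RIN was a covariate, the median was -0.19, Ddit3 was at 0.39 ± 0.28 and Shmt2 at -0.13 ± 0.23. Trib3 was then at 0.23 ± 0.32 and Ppp1r15a at 0.15 ± 0.265. The count called was 18 without control 1 and 4 without control 2, without control 5 or without control 6. Of the 19 genes of p53 and cell death, 4 were higher and 1 lower. Bbc3 (PUMA), an initiator of apoptosis, rose from 20.2 ± 7.60 to 53.6 ± 7.83 CPM and was at 0.50 ± 0.20 with RIN as a covariate. Bcl2l1, a protector against apoptosis, fell from 89.3 ± 6.76 to 62.0 ± 3.49 CPM and was at -0.44 ± 0.14 with RIN as a covariate. The median of that list was 0.27, and 0.12 with RIN as a covariate. It had 2 higher genes without control 2 or control 5, and 2 lower genes without control 1 or DEX + RU-486 14.

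**Figure D3:**
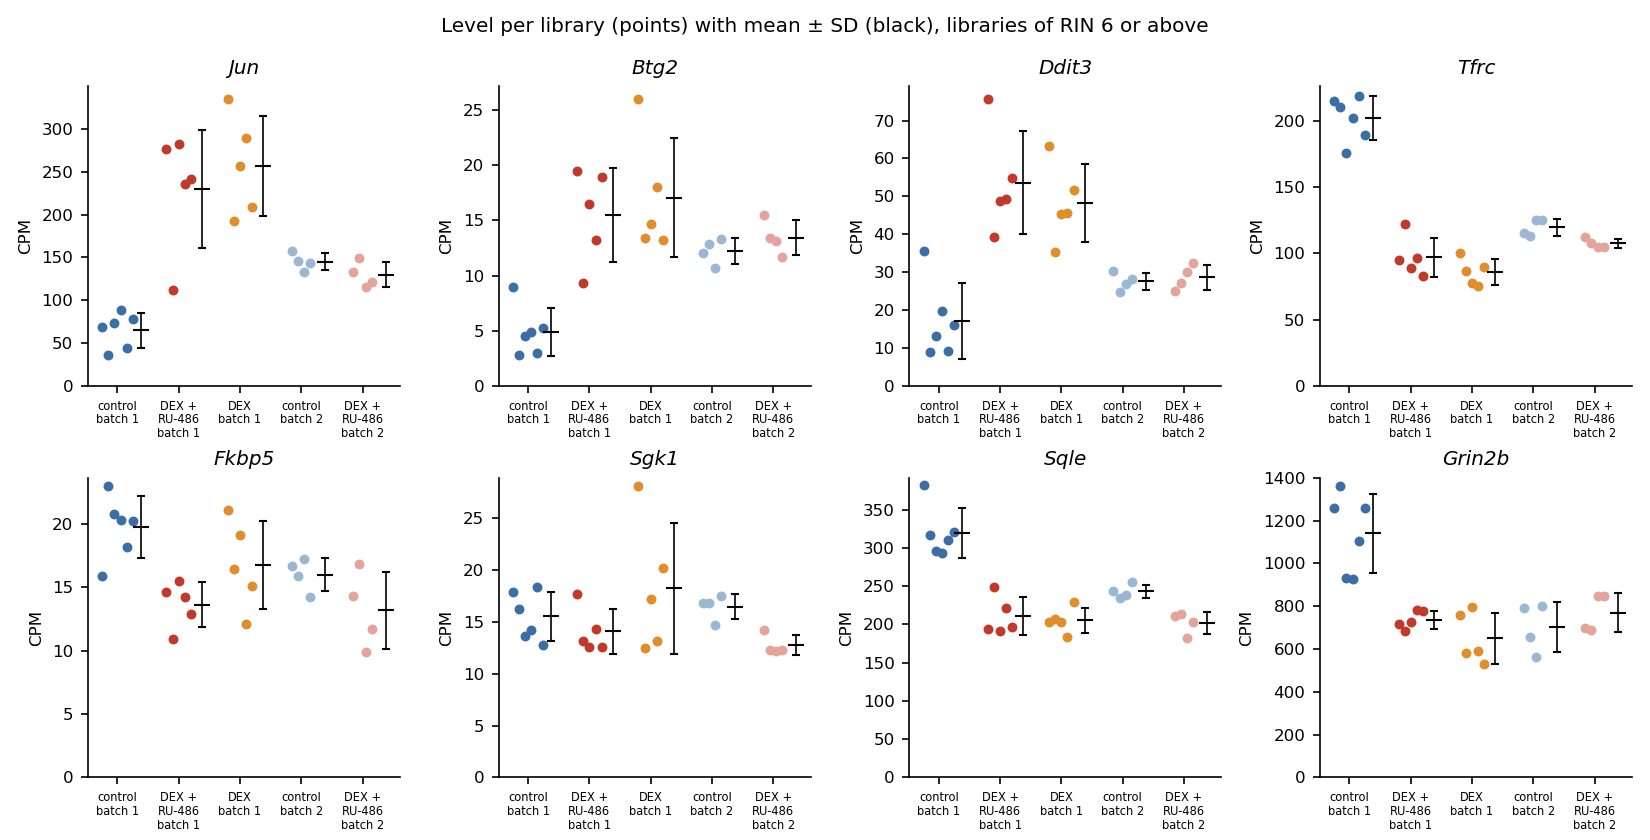
CPM of 8 genes in each library of RIN 6 or above (points, with the mean and SD in black) by group: control, DEX + RU-486 and DEX of batch 1, and control and DEX + RU-486 of batch 2. In Jun, Btg2 and Ddit3 the control libraries of batch 2 lay above most or all of those of batch 1, in Tfrc all below them. Fkbp5 and Sqle were lower in DEX + RU-486 than in control of batch 1, and Sgk1 overlapped.

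Most targets of GR did not pass the test. Of 30 tested genes known to be raised by GR, 5 were higher, 3 lower and 22 not called, where 6.52% of all genes were higher and 7.86% lower, with a median log2 fold change of 0.36. Fkbp5 (ENSMUSG00000024222, chr17:28399094-28517527), a co-chaperone that restrains GR and is one of its most sensitive targets, stood at 15.9, 23, 20.8, 20.3, 18.2 and 20.2 CPM in control libraries. It stood at 14.6, 10.9, 15.5, 14.2 and 12.9 CPM in DEX + RU-486 libraries, all below the lowest control. The log2 fold change was -0.50 ± 0.12 (adjusted p = 0.0161) and, with RIN as a covariate, -0.53 ± 0.24 (adjusted p = 0.299). In DEX libraries Fkbp5 stood at 12.1 to 21.1 CPM, -0.23 ± 0.15 against the same controls. Glul, the glutamine synthetase of astrocytes, fell from 54.6 ± 6.49 to 39.2 ± 3.67 CPM, although the groups overlapped. Per1, a clock gene with a GR site, rose by 0.78 ± 0.21, and Ddit4 (REDD1), an inhibitor of mTOR, rose from 46.1 ± 7.69 to 65.9 ± 5.32 CPM. Cebpb, an inflammatory and metabolic factor, rose from 10.9 ± 7.20 to 30.9 ± 12.9 CPM, with control library 1 at 24.9 CPM. Dusp1, described above, is on this list as well. In the fit with RIN as a covariate, the median of the list was -0.09. Per1 was then at -0.21 ± 0.18, Cebpb at -0.04 ± 0.23, Ddit4 at 0.15 ± 0.17 and Glul at -0.10 ± 0.15. The count of higher genes was 3 without control 2 and 8 without DEX + RU-486 14.

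The remaining GR targets fixed by name did not pass the test. Sgk1, whose GR palindrome is printed above, stood at 12.8 to 18.4 CPM in control and 12.6 to 17.7 CPM in DEX + RU-486 (-0.11 ± 0.13, adjusted p = 0.624). Tsc22d3 (GILZ), an anti-inflammatory target, stood at 6.35 to 14.5 CPM and 10.2 to 19.5 CPM (0.61 ± 0.22, adjusted p = 0.072). Klf9 and Zbtb16, both transcription factors, stood at 7.68 to 24.6 and 9.12 to 24.2 CPM and at 2.59 to 9.69 and 4.66 to 12.5 CPM. In Klf9 control library 1 and library 13 were far above the rest of their groups, at 24.6 and 24.2 CPM. The metallothioneins Mt1 and Mt2 were at 0.37 ± 0.21 and 0.29 ± 0.33 on the log2 scale, and the cell cycle inhibitor Cdkn1a at 0.26 ± 0.13. The signs of Tsc22d3, Klf9, Zbtb16, Mt1, Mt2 and Cdkn1a were opposite with RIN as a covariate. Against the same controls, DEX alone had 7 of the 30 tested GR targets higher and 1 lower, with 8.4% and 11.7% over all genes. Sgk1 (0.24), Klf9 (0.51), Zbtb16 (0.95), Mt1 (0.44) and Mt2 (0.65) missed the threshold under DEX too. Tsc22d3 (0.70 ± 0.23, adjusted p = 0.0393) and Cdkn1a (0.49 ± 0.14, adjusted p = 0.0201) passed it.

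The receptors themselves overlapped between groups, and several of their chaperones were lower. Nr3c1, which codes for GR, stood at 11.7 to 27 CPM in control and 10.8 to 15.7 CPM in DEX + RU-486 (-0.28 ± 0.20, adjusted p = 0.359). Control library 1 held the highest value, and the other controls reached 15.1 CPM. Nr3c2, which codes for the mineralocorticoid receptor, stood at 7.83 to 23.2 CPM and 5.13 to 22.1 CPM (-0.04 ± 0.30), and its sign turned with upper-quartile scaling. Crhr1, the receptor of corticotropin-releasing hormone, was at -0.06 ± 0.19. Ddit4l (REDD2) was near the floor, with 0 to 0.182 CPM in control and 0.0942 to 1.13 CPM in DEX + RU-486, at an adjusted p of 0.047, a call lost in 8 of 11 fits that left out 1 library. Of 24 receptors, chaperones and coregulators, 6 were lower and 2 higher, with a median of -0.18. Of all genes 7.86% were lower and 6.52% higher, and of protein-coding genes over 100 CPM 33.2% were lower. Hspa8, the constitutive Hsc70, stood at 1392 to 1847 CPM in control and 1121 to 1286 CPM in DEX + RU-486 (-0.47 ± 0.10). Dnaja1, its co-chaperone, fell from 293 ± 21.7 to 202 ± 8.63 CPM. Hspa1a, the heat-inducible Hsp70, rose from 21.7 ± 2.81 to 34 ± 7.16 CPM. When RIN entered the model, the median was -0.30, Hspa8 was at -0.46 ± 0.16 and Dnaja1 at -0.37 ± 0.13. Without DEX + RU-486 17 the lower count was 3, and without DEX + RU-486 15 the higher count was 1. Of 19 clock genes, 5 were higher and 1 lower, with a median of 0.05 and of -0.13 with RIN as a covariate. Per2, a repressor of the clock, rose from 19.1 ± 5.69 to 38.1 ± 7.43 CPM, Cry2 from 96.4 ± 17.7 to 135 ± 15 CPM and Nfil3 from 57.7 ± 9.93 to 79.8 ± 13.9 CPM. With RIN as a covariate these stood at 0.13 ± 0.18, 0.04 ± 0.15 and -0.09 ± 0.17. The higher count was 2 without control 2, and 3 without control 5 or DEX + RU-486 15. The lower count was 0 without any one of these libraries and 2 without control 4, DEX + RU-486 13 or DEX + RU-486 14.

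Genes of cholesterol synthesis and uptake were lower, and their median stayed below 0 with RIN as a covariate. Neurons in culture without serum make their own cholesterol, under the factor SREBP-2. Of the 25 genes of the list, 13 were lower and 0 higher, with a median log2 fold change of -0.36. Of all genes 7.86% were lower, and of protein-coding genes over 100 CPM 33.2%, the latter with a median of -0.21. Sqle, squalene epoxidase (chr15:59315077-59331192), stood at 382, 317, 296, 293, 310 and 320 CPM in control libraries 1 to 6 and at 194, 249, 191, 222 and 197 CPM in DEX + RU-486 libraries 13 to 17. Even library 14, the highest of the treated, lay under the lowest control, and the log2 fold change was -0.57 ± 0.10 (adjusted p = 0.00351). Stard4, a cholesterol carrier, fell from 301 ± 33.5 to 175 ± 31.6 CPM. Sc5d and Srebf2, whose promoters are printed above, fell from 134 ± 16.6 to 91.6 ± 8.86 CPM and from 352 ± 23.1 to 252 ± 26.5 CPM. The summed level of the list was 6303 to 6985 CPM in control and 3920 to 5689 CPM in DEX + RU-486. Once RIN was a covariate, the median was -0.32, 20 of 25 genes were below 0, and Sqle and Stard4 were at -0.60 ± 0.16 and -0.70 ± 0.21. Among libraries of RIN 7 to 8.6 the median was -0.37 and 22 of 25 were below 0. Between 11 and 16 members were lower whichever library was left out.

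Some genes of synaptic receptors were lower. Of 26 glutamate receptor genes tested, 5 were lower and none higher, with a median of -0.17. Of all genes 7.86% were lower, and of protein-coding genes over 100 CPM 33.2%. Grin2b, an NMDA receptor subunit of young neurons, stood at 1259, 1360, 932, 926, 1105 and 1259 CPM in control libraries 1 to 6 and at 717, 683, 725, 784 and 777 CPM in DEX + RU-486 libraries. The treated libraries lay close together, below all controls (-0.59 ± 0.11, adjusted p = 0.00531), and the value was -0.70 ± 0.19 with RIN as a covariate. Gria1, an AMPA receptor subunit, fell from 291 ± 28.2 to 202 ± 21.7 CPM, and Grin3a, a modulatory NMDA subunit, from 39.2 ± 9.42 to 20.9 ± 4.88 CPM. Grin3a was at -0.87 without and -0.41 ± 0.26 with RIN as a covariate. Of 20 genes of GABA receptors and synthesis, 8 were lower and none higher, with a median of -0.25. Gabra5, a subunit of extrasynaptic GABA-A receptors, stood at 97.7 to 142 CPM in control and 61.8 to 91.5 CPM in DEX + RU-486 (-0.64 ± 0.12), and it was at -0.30 ± 0.17 with RIN as a covariate. In the fit with RIN as a covariate, the medians of the glutamate and GABA lists were -0.26 and -0.30. Without DEX + RU-486 14, 2 glutamate receptor genes were higher. The GABA count was 4 without control 2, control 5, control 6 or DEX + RU-486 15, and 5 without DEX + RU-486 16 or 17.

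Some genes of channels and of the release machinery were lower as well. Of 31 voltage-gated channel genes, 6 were lower and 1 higher. Of all genes 7.86% were lower and 6.52% higher, and of protein-coding genes over 100 CPM 33.2% and 3.07%. Scn2a, the main sodium channel of excitatory axons, stood at 262 to 348 CPM in control and 195 to 228 CPM in DEX + RU-486 (-0.56 ± 0.09, adjusted p = 0.00253). Kcnd2, the A-type potassium channel Kv4.2, fell from 94.8 ± 15.3 to 58.9 ± 8.17 CPM (-0.65, and -0.39 with RIN as a covariate). Scn1a, the sodium channel of inhibitory neurons, was the member that rose, from 25.3 to 39.7 CPM in control to 40.5 to 60.3 CPM in DEX + RU-486. Of 30 genes of synaptic vesicles and release, 6 were lower and 1 higher. Nsf, the ATPase that takes apart used SNARE complexes, fell from 217 ± 30.2 to 149 ± 22 CPM, and the SNARE gene Snap25 from 267 ± 18.1 to 217 ± 13.3 CPM, although the call of Snap25 was lost in 7 of 11 fits that left out 1 library. When RIN entered the model, the medians of both lists were -0.38 and -0.30, and Scn2a and Nsf were at -0.51 ± 0.15 and -0.72 ± 0.18. The lower vesicle count was 12 without DEX + RU-486 13, 2 without DEX + RU-486 17 and 3 without control 2, control 5, control 6 or DEX + RU-486 15, and the higher count was 0 without any one of these libraries. Of 8 neurotrophin genes tested, 2 were lower, Sort1 (sortilin, 95.4 ± 16.2 to 61.4 ± 8.90 CPM) and Ntrk3 (the neurotrophin-3 receptor, 198 ± 22.2 to 150 ± 8.62 CPM). The median of that list was -0.04, and -0.37 with RIN as a covariate.

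**Figure D4:**
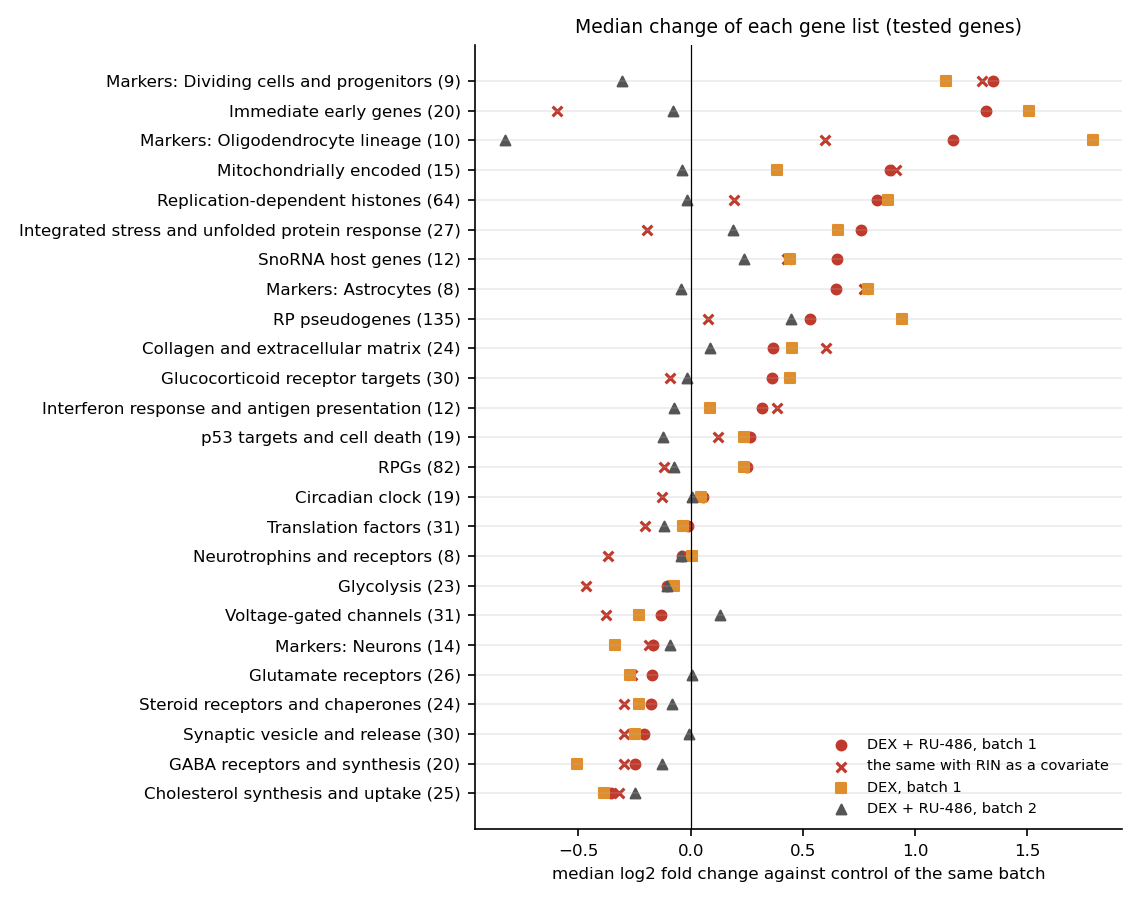
Median log2 fold change against control of the same batch for each gene list, with the number of tested genes in parentheses: DEX + RU-486 of batch 1 (red circles), the same with RIN as a covariate (red crosses), DEX of batch 1 (orange squares) and DEX + RU-486 of batch 2 (grey triangles). For immediate early genes the circle lies at 1.32 and the cross at -0.595. For cholesterol synthesis and uptake all 4 marks lie below 0, between -0.39 and -0.25.

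Some markers of the oligodendrocyte lineage, astrocytes and progenitors were higher, and some of neurons lower. In bulk libraries a change in the number of cells of a type and a change in RNA per cell cannot be told apart. Of 14 neuronal markers 4 were lower and none higher, with a median of -0.17 and of -0.19 with RIN as a covariate. Of all genes 7.86% were lower and 6.52% higher, and of protein-coding genes over 100 CPM 33.2% were lower. Rbfox3 (NeuN) stood at 91.9 to 109 CPM in control and 63.5 to 81.2 CPM in DEX + RU-486, and Tubb3 fell from 652 ± 83.8 to 441 ± 84.2 CPM. Log2 fold changes with RIN as a covariate were -0.40 ± 0.145 for Rbfox3 and -0.15 ± 0.17 for Tubb3. The neuronal count was 2 without control 1, 2, 5 or 6 or DEX + RU-486 15 or 17. Of 10 markers of the oligodendrocyte lineage 6 were higher and none lower, with a median of 1.17, and their summed level ran from 82.8 to 352 CPM in control and from 272 to 826 CPM in DEX + RU-486. Mbp (myelin basic protein) stood at 40.3, 57.1, 120, 57.2, 55.2 and 171 CPM in control libraries 1 to 6 and at 163, 134, 344, 217 and 207 CPM in DEX + RU-486 libraries. Control libraries 3 and 6 thus came close to or passed libraries 13 and 14. Cnp, another myelin gene, rose by 1.38 ± 0.30 on the log2 scale. With RIN as a covariate the median of the list was 0.60, and without DEX + RU-486 15 only 2 members were called.

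Astrocyte and progenitor markers were low in all libraries. Of all genes 6.52% were higher and 7.86% lower, and of protein-coding genes from 1 to 10 CPM 9.16% and 1.81%. Of 8 astrocyte markers tested 3 were higher and none lower, with a median log2 fold change of 0.65. Of these markers 6 were above 0 and 2 below, from -1.20 to 2.79. Their summed level was 36.8 to 52.7 CPM in control and 38.3 to 71.3 CPM in DEX + RU-486. Gja1 (connexin 43) stood at 0.0284 to 0.333 CPM and 0.334 to 3.81 CPM, and Gfap at 0.0568 to 0.627 CPM and 0.0567 to 4.99 CPM. Only 1 astrocyte marker was called without control 5, DEX + RU-486 16 or DEX + RU-486 17. Of 9 markers of dividing cells and progenitors 4 were higher, with a summed level of 8.86 to 39.7 CPM and 25.7 to 97.2 CPM. Nes (nestin) rose from 7.96 ± 3.95 to 20.9 ± 11.4 CPM, Top2a from 2.07 ± 0.84 to 5.36 ± 2.41 CPM and Eomes, of intermediate progenitors, from 1.08 ± 0.92 to 3.79 ± 2.22 CPM. In Nes, Top2a and Eomes control library 6 lay above library 14. Leaving out 1 library lost the call of Eomes in 6 of 11 fits and that of Gfap in 4. The count was 0 without DEX + RU-486 15, 1 without DEX + RU-486 17, 2 without control 2, control 4, control 5 or DEX + RU-486 16, and 7 without DEX + RU-486 14. Once RIN was a covariate, the medians of the astrocyte and progenitor lists were 0.77 and 1.30. The endothelial gene Kdr and the pericyte gene Rgs5 were called at 0.108 against 0.613 CPM and 0.478 against 1.77 CPM, each the 1 called member of its list. The call of Rgs5 was lost in 8 of 11 fits that left out 1 library and that of Kdr in 3. No endothelial marker was called without control 2, control 5 or DEX + RU-486 15. The mural count was 1 without control 4, 2 without DEX + RU-486 13 or 14 and 0 without any other single library. None of the microglia, choroid plexus or blood markers was called. The medians of the endothelial, mural, microglia, choroid plexus and blood lists were 1.16, 1.18, 1.605, -0.27 and 0.72, and with RIN as a covariate 1.15, 2.24, 0.59, 0.64 and 1.48. Ptprc and Csf1r, of microglia, averaged 0.069 and 0.226 CPM in control and 0.567 and 0.682 CPM in DEX + RU-486, where library 15 alone held 1.94 CPM of Ptprc. Of 24 matrix genes, 4 were called higher and 1 lower, and 16 lay above 0 and 8 below. Among the higher were Sparc (1.77 ± 0.65 to 5.5 ± 3.26 CPM), Col5a1 (1.66 ± 0.91 to 4.30 ± 1.47 CPM) and Bgn (0.35 ± 0.39 to 2.76 ± 2.73 CPM). The call of Bgn was lost in 5 of 11 fits that left out 1 library. The higher matrix count was 2 and the lower 0 without control 2, 5 or 6 or DEX + RU-486 15 or 17. The matrix median was 0.37, and 0.60 with RIN as a covariate. Of 12 genes of the interferon response and antigen presentation none was called, with B2m at 0.46 ± 0.16 and Irf9 at 0.46 ± 0.16 (adjusted p = 0.0669 and 0.0664), and the median was 0.32, or 0.39 with RIN as a covariate.

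Transcripts of the mitochondrial genome were higher, 13 of 15, with none lower and a median of 0.89. Of all genes 6.52% were higher and 7.86% lower, and of protein-coding genes over 100 CPM 3.07% and 33.2%. The ribosomal RNA mt-Rnr2 stood at 45652 to 100162 CPM in control and 134115 to 357807 CPM in DEX + RU-486 (1.79 ± 0.26), and mt-Rnr1 at 39271 to 86029 CPM and 105281 to 239858 CPM. The respiratory chain genes mt-Co1 and mt-Cytb rose by 0.93 ± 0.17 and 1.00 ± 0.19. In the fit with RIN as a covariate, the median was 0.91 and all 15 genes were above 0, with mt-Co1 at 0.94 ± 0.31 (adjusted p = 0.20). When nuclear protein-coding genes were scaled and tested alone, 1203 of them were higher and 1401 lower. Of 23 glycolysis genes 3 were higher and 6 lower, and 2 and 2 without DEX + RU-486 17. The glycolysis median was -0.105, and -0.47 with RIN as a covariate. Hk2, the inducible hexokinase, rose from 1.60 ± 0.73 to 3.74 ± 0.82 CPM, whereas Hk1, the hexokinase of neurons, fell from 291 ± 27 to 211 ± 26.1 CPM and Pfkfb3 from 43.6 ± 2.91 to 31.7 ± 5.07 CPM. Log2 fold changes with RIN as a covariate were 0.34 ± 0.45 for Hk2, -0.49 ± 0.16 for Hk1 and -0.33 ± 0.17 for Pfkfb3.

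Host genes of small nucleolar RNAs and replication-dependent histones were higher in part. Of 12 host genes of small nucleolar RNAs 8 were higher and none lower, with a median of 0.65 and of 0.43 with RIN as a covariate. Snhg5 stood at 14.1 to 20.5 CPM in control and 24.6 to 34.3 CPM in DEX + RU-486 (0.82 ± 0.12) and was at 0.93 ± 0.21 with RIN as a covariate. Snhg15 rose from 3.90 ± 0.66 to 7.41 ± 1.63 CPM. Of 64 replication-dependent histone genes 35 were higher and none lower, with a median of 0.83. Hist1h1c, a linker histone, rose from 67.0 ± 15.6 to 138 ± 39 CPM, and Hist1h3e from 12.2 ± 2.15 to 21.6 ± 2.42 CPM. When RIN entered the model, the median of the histones was 0.19 and 43 of 64 were above 0. Hist1h1c was then at 0.15 ± 0.18 and Hist1h3e at 0.71 ± 0.24. Most histone transcripts lack a poly(A) tail, and the labels name poly(A) selection. Of 82 RPGs 13 were higher and none lower, with a median of 0.25 and of -0.12 with RIN as a covariate. Rpl22l1 rose by 0.67 ± 0.17 on the log2 scale. Of 135 RP pseudogenes 16 were higher and none lower, among them Rpl17-ps8 (15.1 ± 3.09 to 24.7 ± 5.68 CPM), where reads shared with the parent gene make the level uncertain. The median of the pseudogenes was 0.53, and 0.08 with RIN as a covariate. The RPG count was 2 without control 2, 3 without DEX + RU-486 17, 4 without control 5 or DEX + RU-486 15, 6 without DEX + RU-486 13, 7 without control 3 and 23 without DEX + RU-486 14. The pseudogene count was 3 without DEX + RU-486 15, 4 without control 5 or DEX + RU-486 17, 6 without control 2, 9 without control 1 or 3 and 36 without DEX + RU-486 14. Of 31 translation factors 2 were higher and 3 lower, near the shares of all genes (6.52% and 7.86%), with a median of -0.01 and of -0.205 with RIN as a covariate. Eif4e, the cap-binding protein, fell from 63.6 ± 6.73 to 43.6 ± 3.86 CPM and Eif4g2 from 711 ± 56.6 to 531 ± 30.1 CPM. The lower count was 5 without control 3 and 2 without DEX + RU-486 17, and the higher count 1 without control 2 or DEX + RU-486 15 or 17.

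The comparison was set beside DEX alone in batch 1, which shares the control libraries. DEX alone had 1654 genes higher (8.4%) and 2307 lower (11.7%) than control, 20.1% in either direction. The RIN of those 5 DEX libraries was 6.2 to 7.8 and their mitochondrial rRNA share 20.8% to 39.5%. Log2 fold changes in DEX were 1.99 for Jun, 1.51 for Ddit3, -1.22 for Tfrc, -0.80 for Grin2b, -0.63 for Sqle and 2.03 for Mbp, where DEX + RU-486 had 1.86, 1.68, -1.02, -0.59, -0.57 and 1.39. Jun stood at 193 to 335 CPM in DEX, a range that overlapped that of DEX + RU-486. Tested directly, DEX + RU-486 against DEX gave 0 genes in either direction with edgeR (before adjustment, 308 higher and 485 lower with p under 0.05), and 0 higher and 9 lower with DESeq2. That test had 5 libraries a group, and a p that misses the threshold does not show that the treatments act alike.

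In batch 2 the same treatment gave no called gene in either direction with edgeR. Before adjustment, p was under 0.05 in 1070 genes above and 1294 genes below control, the smallest adjusted p was 0.0997, and DESeq2 called 63 higher and 41 lower. In batch 2 the groups did not differ in mitochondrial rRNA as they did in batch 1, with 23% to 30.7% in control and 19.8% to 31.9% in DEX + RU-486, and RIN was 7.4 to 8.0 and 7.6 to 8.7. The difference between batches was itself tested and passed in 227 genes (1.15%). For Jun the change was 1.86 ± 0.24 in batch 1 and -0.18 ± 0.09 in batch 2 (adjusted p of the difference 0.0086). Zfp516, Myo6, Plat and Eif2ak3 rose by 1.01, 0.97, 1.15 and 0.99 in batch 1 and were at -0.37, -0.27, -0.43 and -0.21 in batch 2. For Tfrc the changes were -1.02 ± 0.10 and -0.17 ± 0.06 (adjusted p of the difference 0.00772). The controls of both batches also differed in level. Jun stood at 133 to 158 CPM in control of batch 2, where control of batch 1 reached at most 88.6 CPM, and Tfrc at 113 to 125 CPM, where control of batch 1 did not fall under 176 CPM. In both genes the controls of batch 2 thus lay toward the DEX + RU-486 libraries of batch 1. The count of genes that differed between batches moved strongly with single libraries. It was 11 without control 21 or DEX + RU-486 36, 13 without control 22 or DEX + RU-486 35, 24 without control 2 or DEX + RU-486 15, 25 without DEX + RU-486 17, 38 without control 5, 47 without control 23 and 85 without DEX + RU-486 16. It was 364 without control 1, 387 without DEX + RU-486 13, 410 without DEX + RU-486 34, 423 without control 3 and 985 without DEX + RU-486 14.

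Some genes went the same way in both batches. All 25 genes of cholesterol synthesis and uptake were below 0 in batch 2, with a median of -0.25, none of them past the test, and no member differed between batches past the test. Their summed level was 5711 to 5895 CPM in control and 4307 to 5332 CPM in DEX + RU-486 of batch 2, without overlap in that batch either. Stard4 was at -0.74 ± 0.12 in batch 1 and -0.37 ± 0.14 in batch 2, Sqle at -0.57 ± 0.10 and -0.28 ± 0.07, and Srebf2 at -0.45 ± 0.09 and -0.25 ± 0.08. Per2 was at 1.04 ± 0.19 and 0.67 ± 0.17, Trib3 at 1.60 ± 0.35 and 0.69 ± 0.15, and Scn1a at 0.64 ± 0.14 and 0.49 ± 0.12. None of them passed the test in batch 2. In batch 1 with RIN as a covariate, Per2 was at 0.13 ± 0.18, Trib3 at 0.23 ± 0.32 and Scn1a at 0.50 ± 0.24. Fkbp5 was at -0.50 ± 0.12 and -0.29 ± 0.16, with 9.88 to 16.8 CPM in DEX + RU-486 and 14.2 to 17.2 CPM in control of batch 2. The medians of the immediate early and mitochondrial lists were -0.08 and -0.04 in batch 2, and that of the oligodendrocyte lineage was below 0, with Mbp at -0.83 ± 0.29. In batch 2, DEX + RU-486 libraries 35 and 36 (RIN 8.7 and 8.5) stood apart from 33 and 34 (7.8 and 7.6) in some genes. Per2 stood at 22.8 and 25.8 CPM in 33 and 34 and at 44.5 and 40.3 CPM in 35 and 36 (controls 19.5 to 21.4). Stard4 stood at 166 and 156, then 105 and 113 CPM (controls 163 to 184), and Mbp at 210 and 233, then 77 and 105 CPM. Trib3 stood at 6.45 and 8.2, then 10.1 and 10.5 CPM (controls 5.3 to 5.6). Scn1a, at 63.6, 48, 73 and 59.7 CPM, overlapped between these pairs, and the part of RIN was not tested.

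**Figure D5:**
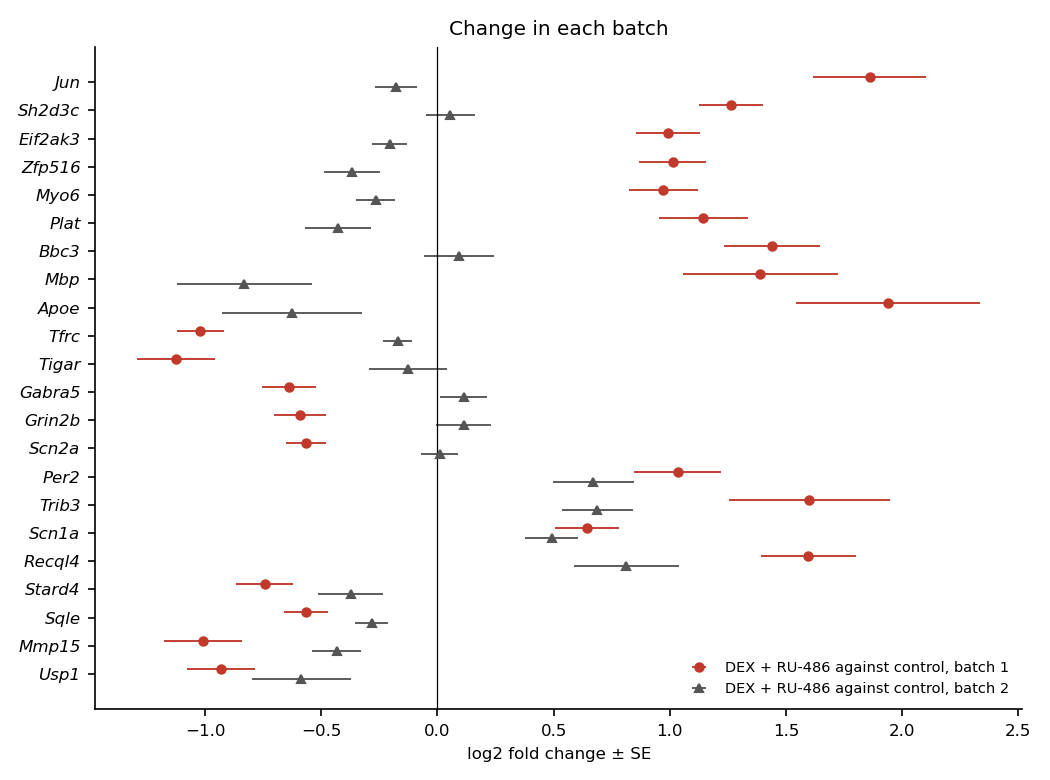
Log2 fold change ± SE of DEX + RU-486 against control in batch 1 (red circles) and batch 2 (grey triangles) for 22 named genes, from Jun to Usp1. Jun, Mbp and Apoe lie above 1 in batch 1 and below 0 in batch 2. Per2, Trib3, Scn1a, Recql4, Stard4, Sqle, Mmp15 and Usp1 lie on the same side of 0 in both.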

How the data were processed

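RNAseq of 11 libraries of batch 1 was analysed, with 13 further libraries of RIN 6 or above for comparison. Libraries under RIN 6 were left out of the main fits. The authors deposited 1 table of counts, whole numbers of reads per gene and library without normalization. According to the submitters' processing notes it was made with HISAT2 2.1.0 and Subread 1.5.0-p2 on GRCm38. Which of the alignments that the study describes the table holds is not given in the sources used here, and the labels name poly(A) selection where the methods name total RNA. Of 55492 entries, 55227 matched GENCODE M21, and 5 transgene names were left out.

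Genes with a mean count above 5 over the 11 libraries were kept in every comparison. The test was the quasi-likelihood test of edgeR 4.0.16 (R 4.3.3), with TMM factors and Benjamini-Hochberg adjustment over all 19679 genes. SEs were taken from the log2 fold change and the square root of the F statistic, as their quotient. CPM use TMM factors over libraries of RIN 6 or above and are not divided by length, so levels are compared within a gene only. Each comparison was fitted on its own groups, and the difference between batches as an interaction. Alternatives were DESeq2 1.42.0, other scalings and count filters, RIN or 2 surrogate variables (sva 3.50.0) as covariates, thinning, added or left-out libraries. Chosen after seeing the data were the RIN range 7 to 8.6 and nuclear protein-coding genes alone. The counts of pairs of libraries differed by more than sampling noise, so each library counts once. On simulated counts for this comparison, 97 of 100 genes changed 4-fold and 69 of 100 changed 2-fold were recovered, with 11 of 19479 unchanged genes called. The changed genes were drawn from tested genes of higher mean count. No difference in RIN or mitochondrial rRNA between groups was simulated, so these figures do not cover that difference.

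Genes named are the 12 largest rises and falls of protein-coding genes with an adjusted p under 0.05, a mean of 1 CPM and no overlap of groups, the 6 smallest p in each direction among these, GR targets and receptors taken whatever their values, up to 4 members per list that passed (up to 2 of smallest p where none did) and the 6 smallest p of the difference between batches. Not every gene so selected is reported here. Members and lists were chosen with earlier results of these data known.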

Additional observations from a re-analysis of the deposited data

Results flagged for a closer look

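Single libraries stood apart from the rest of their group in 26 of 234 groups looked at, by the ratio of the gap to the range (Dixon's test at 95%). Chance alone marks about 1 in 20 groups. Control 1 was the highest of its group in Arid5a (15.9 CPM, others 2.07 to 5.25), Per1 (75.5 CPM, others 35.6 to 41.7), Klf9 (24.6 CPM, others 7.68 to 12) and Nr3c1 (27 CPM, others 11.7 to 15.1). Control 1 was the highest of its group in Nr3c2 (23.2 CPM, others 7.83 to 12.8), Cebpb (24.9 CPM, others 5.63 to 11.3), Stard4 (365 CPM, others 268 to 304) and Sqle (382 CPM, others 293 to 320.3). Control 1 was the highest of its group in Trib3 (9.23 CPM, others 1.92 to 3.63), Shmt2 (51.6 CPM, others 17.5 to 23.9) and Sort1 (126 CPM, others 79.7 to 95). DEX + RU-486 14 was the lowest of its group in Jun (112 CPM, others 236 to 282), Recql4 (4.75 CPM, others 6.93 to 7.44), Eif2ak3 (40.2 CPM, others 63.4 to 71.5) and Ier2 (11.2 CPM, others 19.5 to 20.2). DEX + RU-486 15 was the highest of its group in Ermn (4.78 CPM, others 1.37 to 2.27) and Ptprc (1.94 CPM, others 0 to 0.454). DEX + RU-486 13 was the highest of its group in Sh2d3c (49.4 CPM, others 29.1 to 34.8), Klf9 (24.2 CPM, others 9.12 to 12.6), Cdkn1a (51.7 CPM, others 34.7 to 38) and Cebpb (53.6 CPM, others 22.2 to 29.3). DEX + RU-486 13 was the highest of its group in Trib3 (16.1 CPM, others 9.3 to 10.5) and Shmt2 (80.5 CPM, others 37.4 to 47.9). DEX + RU-486 14 was the highest of its group in Megf9 (96.4 CPM, others 76.3 to 80.5). DEX + RU-486 15 was the lowest of its group in Bcl2l1 (56 CPM, others 62.7 to 65.1). Control 5 had 82.4 M counts, where the other controls had 24.2 M to 34.2 M. Control 1 held 11 of these values, and its RIN was the lowest among the controls. The part of RIN in them was not tested.

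The change under DEX + RU-486 differed between batches in 38 of the 112 genes looked at, by edgeR's test of the interaction with Benjamini-Hochberg adjustment over all genes. Values are the log2 fold change of batch 1 minus that of batch 2, with the adjusted p. The difference was positive in Arid5a (2.35, 0.0488), Mmp14 (2.79, 0.0388), Apoe (2.58, 0.0339), Msn (2.54, 0.0339) and Jun (2.04, 0.0086). It was also positive in Btg2 (1.58, 0.036), Ddit3 (1.64, 0.0447), Dusp16 (1.77, 0.0255), Sh2d3c (1.21, 0.00862), Ypel4 (1.08, 0.0198) and Bsdc1 (0.72, 0.0086). It was also positive in Eif2ak3 (1.20, 0.00772), Dusp1 (1.23, 0.022), Hspa1a (1.02, 0.0479), Bbc3 (1.34, 0.0365), Mbp (2.23, 0.0377) and Cnp (2.29, 0.0295). It was also positive in mt-Rnr2 (1.83, 0.0316), mt-Rnr1 (1.85, 0.0365), mt-Co1 (0.97, 0.0454), Hist1h1c (1.22, 0.0255), Hist1h3e (0.99, 0.0372) and Zfp516 (1.38, 0.00724). It was also positive in Myo6 (1.24, 0.00772) and Plat (1.57, 0.0086). The difference was negative in Tigar (-1.0, 0.0447), Tfrc (-0.85, 0.00772), Mgat3 (-0.45, 0.0461), Fzd3 (-0.72, 0.0294), Megf9 (-0.62, 0.0193) and Ola1 (-0.63, 0.0295). It was also negative in Dnaja1 (-0.42, 0.047), Bcl2l1 (-0.44, 0.0388), Grin2b (-0.71, 0.0488), Gabra5 (-0.76, 0.0365) and Scn2a (-0.58, 0.0295). It was also negative in Ntrk3 (-0.64, 0.036) and Rbfox3 (-0.57, 0.0479). The controls of both batches differed in level too, and batch and culture conditions cannot be told apart.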

How the results depend on the processing

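RIN had the largest effect among the alternatives run on DEX + RU-486 against control of batch 1. With RIN as a covariate 0 genes were higher and 0 lower, and with RIN 7 to 8.6 alone, chosen after seeing the data, 12 and 17. The cause was not tested, and the latter used 7 libraries. With 2 surrogate variables 804 were higher. The other scalings, filters, DESeq2, thinning, DEX + RU-486 18 added, DEX in the model and nuclear protein-coding genes alone stayed within 1.5 times of the reported counts. Leaving out 1 library gave 622 to 1673 higher and 856 to 1735 lower. In batch 2 DESeq2 called 63 and 41, and no count filter 371 and 227; without single libraries 0 were higher and 0 to 1 lower. Against DEX, DESeq2 called 9 lower, no filter 12 and 45, and leaving out 1 library 0 to 2 lower. For DEX against control, no filter gave 2956 higher, and leaving out 1 library 1145 to 1959 higher and 1677 to 2921 lower. The difference between batches was called in 1017 genes with DESeq2, 1098 without a filter, 400 with at least 10 counts in every library, and 11 to 985 without single libraries. Of 112 genes looked at, 98 were called, 84 of them in all 11 fits that left out 1 library. With RIN as a covariate 10 changed sign: Tsc22d3 -0.325, Per1 -0.213, Klf9 -0.962, Zbtb16 -0.488, Mt1 -0.411, Mt2 -0.161, Cdkn1a -0.134, Cebpb -0.038, Nfil3 -0.085 and Shmt2 -0.134. With RIN 7 to 8.6 Klf9 was at -0.271 and Crhr1 at 0.001. Nr3c2 was at 0.006 with upper-quartile scaling and with at least 10 counts, and at 0.218 with surrogate variables. Without single libraries Nr3c2 ran from -0.335 (without DEX + RU-486 13) to 0.208 (without control 1), Klf9 from -0.08 (without DEX + RU-486 13) to 0.565 (without control 1) and Crhr1 from -0.165 (without DEX + RU-486 15) to 0.015 (without DEX + RU-486 14). No paired analysis was run, because the labels do not say whether control and DEX + RU-486 cultures were paired.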
